A study of Homo sapiens with 18 samples.

Results

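The histone gene cluster of chromosome band 6p22 was examined by ATAC-seq, an assay in which the Tn5 transposase cuts and tags accessible DNA. Its members were the 1 kb windows that overlapped the annotated span, extended by 1 kb on each side, of a protein-coding H1, H2A, H2B, H3 or H4 gene in the cluster (GRCh37, the same build as hg19). The rule found 50 genes, which reach from chr6:26017260 to chr6:27861669, of which 6 encode H1, 11 H2A, 12 H2B, 10 H3 and 11 H4, in 3 groups of 29, 5 and 16 genes along the chromosome. Of the 267 windows of the tiling grid that overlapped these spans, 84 were present in the table of 89428 windows. Each value is an FPKM, the reads of a window per kilobase and per 1000000 reads of the library, and because every window has the same length it is also a level per length.

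The study compared 6 established human cancer cell lines, each measured in 3 replicate libraries. A2780 is labelled as an endometrial or ovarian cancer line that is sensitive to platinum, and CP70 is a platinum-resistant line selected from it in culture. PEA1 (sensitive) and PEA2 (resistant) came from 1 patient with high-grade serous ovarian cancer before treatment and at relapse. PEO1 (sensitive) and PEO4 (resistant) came from another patient before and after resistance developed. Per the study, both PEO lines were taken after platinum-based chemotherapy, unlike PEA1. None of the 18 libraries carried a drug treatment in its label, each patient is represented by 1 pair of lines, and the labels do not say whether replicates were separate cultures, so that p-values measure the spread between these libraries. Of 6 markers of this tissue (PAX8, WT1, EPCAM, KRT8, KRT18 and MUC16), 5 had their start window in the table, with line means from 0.61 FPKM (PAX8) to 1.1 FPKM (WT1) in A2780 and from 6.03 FPKM (KRT18) to 16.5 FPKM (WT1) in PEO1. Of 5 annotated markers of blood, endothelial and stromal cells, 0 had a start window in the table.

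Histones are the proteins around which DNA is wound. H2A, H2B, H3 and H4 build the nucleosome core, and H1 binds the linker DNA where it enters and leaves. The genes of this cluster are replication-dependent: they are switched on together as cells copy their DNA, many of them stand head to head, and their transcripts end in a stem-loop instead of a poly(A) tail. The protein NPAT gathers at the cluster in the histone locus body, and SLBP binds the stem-loop.

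The promoters carried the sequence features that set the families apart. Within 250 bases before and 50 bases after the start, the letters CCAAT on either strand were present at 86% of the 50 histone genes and at 35.9% of 20162 protein-coding genes. They were present at all H1, H2A, H2B and H3 promoters of the cluster and at 36.4% of the H4 promoters. The letters TATAAA were present at 68% of the histone promoters against 9.8% of all promoters. The octamer ATTTGCAT was present at 81.8% of the H2A promoters, at 75% of the H2B promoters and at 0% of the H1, H3 and H4 promoters, against 1.58% of all promoters. The H1 box AAACACA was present at all 6 H1 promoters and at none of the other histone promoters here, against 4.21% of all promoters. A match is a description of these letters and was not tested as a binding site. The sequences below are shown because they carry these features in different families, and because the windows of H2BC11 with H2AC11 and of H2BC3 recur in the results, with the letters of these motifs in capitals on either strand. The first is the shared stretch between the starts of the divergent genes H2BC11 and H2AC11 (chr6:27100574-27100822, plus strand), and the others end at the start of H1-4 (chr6:26156357-26156557, plus strand), H2BC3 (chr6:26043941-26044141, minus strand) and H4C3 (chr6:26103961-26104161, plus strand), all read from GRCh37.
H2BC11 to H2AC11: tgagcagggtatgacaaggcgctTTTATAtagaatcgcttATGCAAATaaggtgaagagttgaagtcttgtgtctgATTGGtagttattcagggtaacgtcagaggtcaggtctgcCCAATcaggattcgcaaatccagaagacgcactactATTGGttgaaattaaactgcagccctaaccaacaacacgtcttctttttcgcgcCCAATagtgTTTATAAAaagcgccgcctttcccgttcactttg
H1-4: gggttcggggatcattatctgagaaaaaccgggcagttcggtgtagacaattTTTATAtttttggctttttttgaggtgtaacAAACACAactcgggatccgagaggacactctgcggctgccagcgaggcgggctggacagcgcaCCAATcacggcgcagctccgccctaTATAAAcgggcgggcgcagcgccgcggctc
H2BC3: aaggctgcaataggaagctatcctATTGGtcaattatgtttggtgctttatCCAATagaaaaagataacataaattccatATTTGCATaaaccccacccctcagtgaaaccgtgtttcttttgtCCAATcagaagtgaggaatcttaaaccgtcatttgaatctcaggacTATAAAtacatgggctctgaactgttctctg
H4C3: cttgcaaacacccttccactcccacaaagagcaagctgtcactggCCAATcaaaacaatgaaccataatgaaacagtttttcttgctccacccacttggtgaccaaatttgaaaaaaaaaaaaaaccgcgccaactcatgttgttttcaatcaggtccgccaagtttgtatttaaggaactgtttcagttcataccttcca

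Near the end of the canonical transcript, a stem-loop of the histone type was found in 47 of the 50 genes, in 6 different forms. The commonest form stood in 28 genes, and the H4 genes mostly carried another. One example of each of the 3 most frequent forms is shown, with the stem-loop in capitals and 4 bases on either side, from H2BC3, H4C1 and H2BC11.
H2BC3: caaaGGCTCTTTTCAGAGCCacct
H4C1: caaaGGCCCTTTTCAGGGCCgccc
H2BC11: taacGGCTCTTTTAAGAGCCaccc

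In 7 couples of an H2A and an H2B gene the starts lay 194 to 251 bases apart and pointed away from each other (H2BC4 with H2AC6, H2BC11 with H2AC11, H2BC12 with H2AC12, H2BC13 with H2AC13, H2AC14 with H2BC14, H2AC15 with H2BC15, and H2AC17 with H2BC17). Of these, 5 couples shared 1 start window, so that their genes cannot be told apart in this table. The start windows of the cluster had a median GC content of 49.2%, against 62.5% for all start windows of protein-coding genes in the table, and a median observed to expected CpG ratio of 0.835 against 0.769.

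The start window of a gene is the grid window whose centre is nearest to the start of its canonical transcript. It was in the table for 43 of the 50 genes, in 38 windows, and covered all 11 H2A and 12 H2B genes, 9 of the 10 H3 genes, 7 of the 11 H4 genes and 4 of the 6 H1 genes. H3C6, H4C11 and H4C12 were represented by a window beside the start. H1-1, H4C7, H4C9 and the testis gene H1-6 were not analysed here, nor were the testis genes H2AC1 and H2BC1, which lie outside the region. Of the 84 member windows, 40 overlapped more than 1 histone span, and 4 lay over 1 kb from any canonical histone transcript. The authors kept uniquely aligned reads, and 75 of the 84 windows held no stretch of 96 bases that occurs elsewhere in the genome. The highest share of such stretches, 26.2%, was in the start windows of H2AC13 and of H2AC14 and H2BC14, whose reads are therefore less certain.

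The libraries held from 8972042 reads (PEO1 replicate 3) to 60495462 reads (A2780 replicate 3), and a member window held a median of 19.5 to 116 reads per library. The share of reads that fell in the table was 8.37% to 10% in A2780 and 38.9% to 40.8% in PEO1, and its part in the levels set across lines was not tested. CP70 replicate 1 stood apart from replicates 2 and 3 of its line: the median over all other protein-coding start windows was 4.02 FPKM in it, against 2.69 and 2.72 FPKM.

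The first question was how high the signal of the cluster was in each line. DNA copy number, which also sets the number of reads, was not analysed here. In the levels of the cluster and of single starts it cannot be told apart from openness. The median over the 38 start windows was highest in PEO4, at 7.12, 7.77 and 6.25 FPKM in its 3 libraries. PEA1 had 3.91, 3.61 and 2.66 FPKM, PEO1 had 3.44, 3.05 and 3.07 FPKM, and CP70 had 3.37, 2.04 and 1.97 FPKM. PEA2 had 1.87, 1.76 and 1.93 FPKM, and A2780 had the lowest medians, at 1.35, 1.52 and 1.11 FPKM. The libraries of PEO4 lay above all others, those of PEA1, PEO1 and CP70 overlapped, and those of A2780 lay below all others. No test was made of these medians, since they are summaries over the members.

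**Figure D1:**
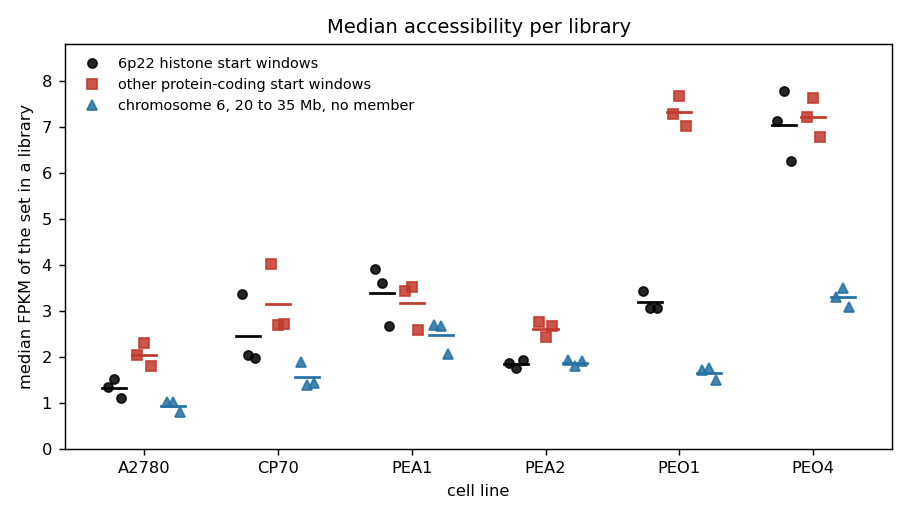
Median FPKM in each library (points, 3 per line) and the mean of the 3 (bars) for the 6p22 histone start windows, the start windows of all other protein-coding genes, and the non-member windows of chromosome 6 between 20 and 35 Mb. The histone starts had 6.25 to 7.77 FPKM in PEO4 against 3.05 to 3.44 FPKM in PEO1, while other starts had 6.77 to 7.63 and 7.02 to 7.68 FPKM in these lines.

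The order of the lines changed when each library was set against its own promoters. The median of the histone start windows divided by that of the 12684 other protein-coding start windows was 1.06 ± 0.0653 (SD, n = 3) in PEA1, 0.977 ± 0.049 in PEO4, 0.773 ± 0.0601 in CP70, 0.71 ± 0.0263 in PEA2, 0.648 ± 0.0241 in A2780 and 0.435 ± 0.0373 in PEO1. The histone starts of PEO1 were thus below those of PEO4 on both scales, whereas PEO1 lay above A2780 in FPKM and below it relative to other promoters. Relative to the 602 non-member windows of chromosome 6 between 20 and 35 Mb, the median of the 84 member windows was 1.43 ± 0.0164 in PEO1 and 1.51 ± 0.065 in PEO4, and 0.834 to 1.05 in the other 4 lines.

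Accessibility was highest at the gene starts in all 6 lines. In PEO4 the median of the line means was 6.92 FPKM over the 40 member windows centred within 500 bases of the nearest histone start and 3.6 FPKM over the 29 windows centred 500 to 1000 bases away. In A2780 the corresponding medians were 1.38 and 0.841 FPKM. Beyond 1000 bases the medians stayed between 0.896 and 0.961 FPKM in A2780 and between 3.24 and 3.45 FPKM in PEO4, in 9 and 6 windows that were in the table because they passed its selection for signal.

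**Figure D2:**
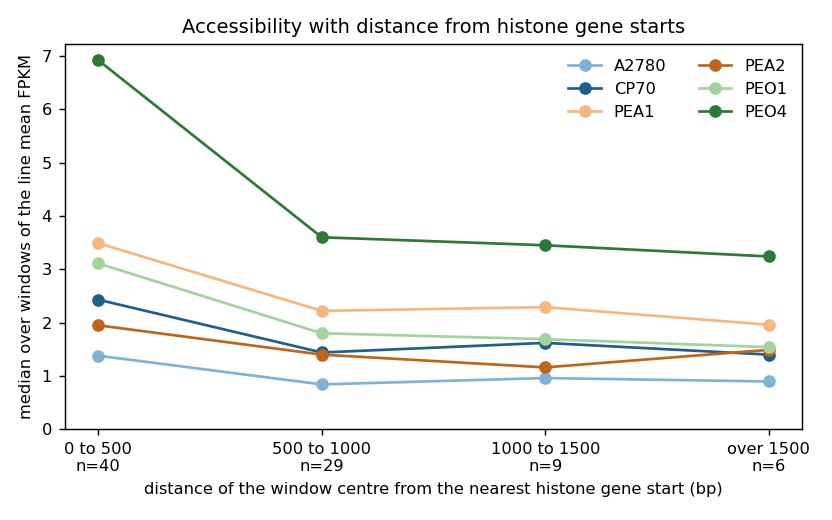
Median over member windows of the line mean FPKM (vertical axis) by the distance in bases of the window centre from the nearest canonical histone gene start (horizontal axis, with the number of windows), for each line. In every line the windows within 500 bases were the highest, from 1.38 FPKM in A2780 to 6.92 FPKM in PEO4.

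Among the families, H2B had the highest median over its start windows in all 6 lines, and H2A came next in 5 of them. In PEO4 the median of the start windows was 12.9 FPKM for H2B and 11.7 FPKM for H2A, against 6.14 FPKM for H4, 6.03 FPKM for H3 and 3.31 FPKM for H1. In PEO1 the medians were 4.76 FPKM for H2B, 4.27 FPKM for H2A, 2.7 FPKM for H4, 2.69 FPKM for H3 and 1.7 FPKM for H1. In A2780 they were 2.09 FPKM for H2B, 1.9 FPKM for H2A, 1.36 FPKM for H4, 1.06 FPKM for H1 and 0.841 FPKM for H3. In CP70 H2B and H2A had 3.49 and 3.42 FPKM and H4 had 2.39 FPKM, and in PEA2 they had 2.45, 2.18 and 1.96 FPKM. PEA1 was the exception, where the H4 median of 3.71 FPKM lay between those of H2B (4.56 FPKM) and H2A (3.66 FPKM). Couples that share a start window enter both the H2A and the H2B median.

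The shared start window of H2BC11 and H2AC11 (chr6:27099901-27100900), part of whose sequence is given above, had the highest mean of both families over the 18 libraries. Its values were 21.6, 20.1 and 19.7 FPKM in PEO4, 6.98, 7.68 and 5.68 FPKM in PEO1, 6.18, 7.26 and 5.61 FPKM in PEA1, and 9.55, 4.67 and 4.27 FPKM in CP70. It had 3.13, 3.47 and 2.53 FPKM in PEA2 and 2.79, 3.92 and 2.68 FPKM in A2780, so that PEO4 stood above every other library and PEA2 and A2780 overlapped. The lowest H2A start was that of H2AC14, shared with H2BC14, and the lowest H2B start was that of H2BC6.

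By the mean over the 18 libraries, the linker histone H1-2 had the most open H1 start (1.69 ± 0.519 FPKM, SD, n = 3, in A2780 and 6.59 ± 1.35 FPKM in PEO4) and H1-5 the least (0.578 ± 0.104 FPKM in A2780 and 2.27 ± 0.454 FPKM in PEO4). H3C2 had the highest H3 start (2.08 ± 0.519 FPKM in A2780 and 6.13 ± 0.514 FPKM in PEO4) and H3C1 the lowest (0.56 ± 0.0704 FPKM in A2780 and 3.06 ± 0.18 FPKM in PEO4). H4C8 had the highest H4 start (2.06 ± 0.243 FPKM in A2780 and 8.88 ± 0.841 FPKM in PEO4) and H4C13 the lowest (0.284 ± 0.172 FPKM in A2780 and 3.0 ± 0.0773 FPKM in PEO4). These ranks hold for the mean over all libraries and not in each line: in PEO4, H3C3 (8.01 FPKM) lay above H3C2, H4C1 (9.41 FPKM) above H4C8 and H1-3 (1.92 FPKM) below H1-5, and in A2780 H3C3 (0.184 FPKM) lay below H3C1. Genes of 1 family encode closely related proteins, and their starts differed in level within a line, to an extent that varied. The H4 starts of PEA2 ran from 1.24 to 2.49 FPKM, and the H3 starts of A2780 from 0.184 to 2.08 FPKM.

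**Figure D3:**
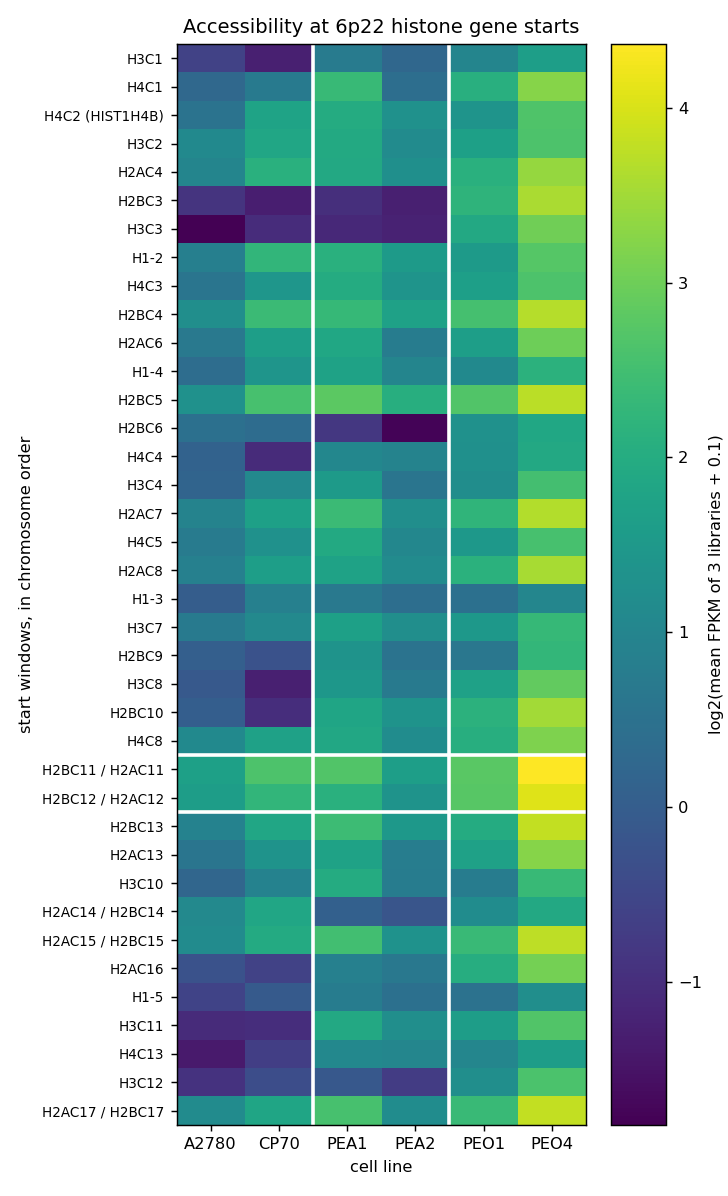
Colour gives log2(mean FPKM of 3 libraries + 0.1) at the 38 start windows (rows, in chromosome order, white lines between the 3 groups of genes) in the 6 lines (columns, white lines between pairs). H2BC3 and H3C3 are dark in A2780, CP70, PEA1 and PEA2, each at a line mean under 0.5 FPKM, and bright in PEO1 and PEO4.

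Single histone starts were nearly closed in some lines and open in others. H2BC3 and H3C3, an H2B and an H3 gene that lie side by side, had line means of 0.306 to 0.438 FPKM and 0.184 to 0.388 FPKM in A2780, CP70, PEA1 and PEA2. In PEO1 the start window of H2BC3 had 4.05, 5.5 and 3.9 FPKM, and in PEO4 it had 12, 12.3 and 11.2 FPKM. That of H3C3 had 3.54, 3.58 and 3.79 FPKM in PEO1 and 7.38, 9.02 and 7.62 FPKM in PEO4. The lines of the PEO pair therefore did not overlap with the other 4 lines at either gene. Against the mean of the other 5 lines, the log2 difference at H2BC3 was 4.05 ± 0.207 (SE) in PEO4 (limma, adjusted p = 1.28e-24) and 2.37 ± 0.207 in PEO1 (adjusted p = 8.28e-16), and that at H3C3 was 3.70 ± 0.225 in PEO4 (adjusted p = 1.43e-21) and 2.36 ± 0.225 in PEO1 (adjusted p = 2.22e-14). Outside the PEO pair no library exceeded 0.575 FPKM at either start, while the table holds only windows over 2 FPKM in at least 2 libraries. Both windows are thus in it only through the PEO pair. That selection fixed the direction of these differences, and their p-values lend them no support. In the 12 libraries of the other 4 lines these windows were not empty: the number of reads in the H2BC3 start window ran from 4 to 29. No stretch of 96 bases in either window occurs elsewhere in the genome.

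Other starts were nearly closed in 1 pair or 1 line. At H3C11, an H3 gene, A2780 had 0.296, 0.586 and 0.264 FPKM and CP70 0.53, 0.359 and 0.293 FPKM, whereas the other 12 libraries had from 2.12 to 7.38 FPKM. Its neighbour H4C13 had 0.132 to 0.471 FPKM in A2780 and 0.239 to 0.682 FPKM in CP70, against 1.23 to 3.08 FPKM in the other lines. The log2 difference of A2780 from the other 5 lines was −2.38 ± 0.189 at H3C11 (adjusted p = 6.96e-17) and −2.26 ± 0.222 at H4C13 (adjusted p = 1.29e-13). At H3C11 the libraries of A2780 and CP70 held 6 to 26 reads, and at H4C13 those of A2780 held 8 to 27. The A2780 and CP70 libraries stayed under 2 FPKM at both starts, so both windows are in the table only through the other lines. That selection favoured a low value in A2780, and the p-values lend these differences no support.

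At H2BC10 and H3C8 the low line was CP70. H2BC10 had 0.606, 0.239 and 0.335 FPKM in CP70, below the 0.785, 1.15 and 0.81 FPKM of A2780, and from 2.31 to 12.8 FPKM elsewhere. H3C8 had 0.379, 0.18 and 0.377 FPKM in CP70 and 0.994, 0.901 and 0.628 FPKM in A2780. The log2 difference of CP70 from the other 5 lines was −2.85 ± 0.176 at H2BC10 (adjusted p = 3.47e-21) and −2.65 ± 0.184 at H3C8 (adjusted p = 3.55e-19). The CP70 values rest on few reads, 4 to 8 per library at H2BC10 and 3 to 9 at H3C8. With A2780 and CP70 under 2 FPKM at both starts, these windows too are in the table only through other lines. That selection favoured a low value in CP70, and the p-values lend no support here either. H4C4 showed the same order, with a mean of 0.385 ± 0.126 FPKM (SD, n = 3) in CP70 and 0.988 ± 0.314 FPKM in A2780.

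In the PEA pair the low starts were those of H2BC6 and of H2AC14 and H2BC14. H2BC6 had 0.481, 0.592 and 0.336 FPKM in PEA1 and 0.275, 0.173 and 0.133 FPKM in PEA2, against 0.628 to 3.84 FPKM in the other 12 libraries, with a log2 difference of −2.39 ± 0.226 for PEA2 (adjusted p = 7.67e-14). The PEA2 libraries held only 5, 3 and 3 reads in this window. It is in the table only through lines outside the PEA pair. That selection favoured a low value in PEA2, and the p-value lends the difference no support. The shared start of H2AC14 and H2BC14 had 0.965 ± 0.248 FPKM in PEA1 and 0.773 ± 0.381 FPKM in PEA2, and 2.03 ± 0.397 to 3.67 ± 0.483 FPKM in the other lines. It was the one start window at which CP70 passed the rule upwards, by 1.03 ± 0.191 (adjusted p = 4.10e-06), and A2780 was 0.14 ± 0.191 from the other lines there (adjusted p = 0.501).

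**Figure D4:**
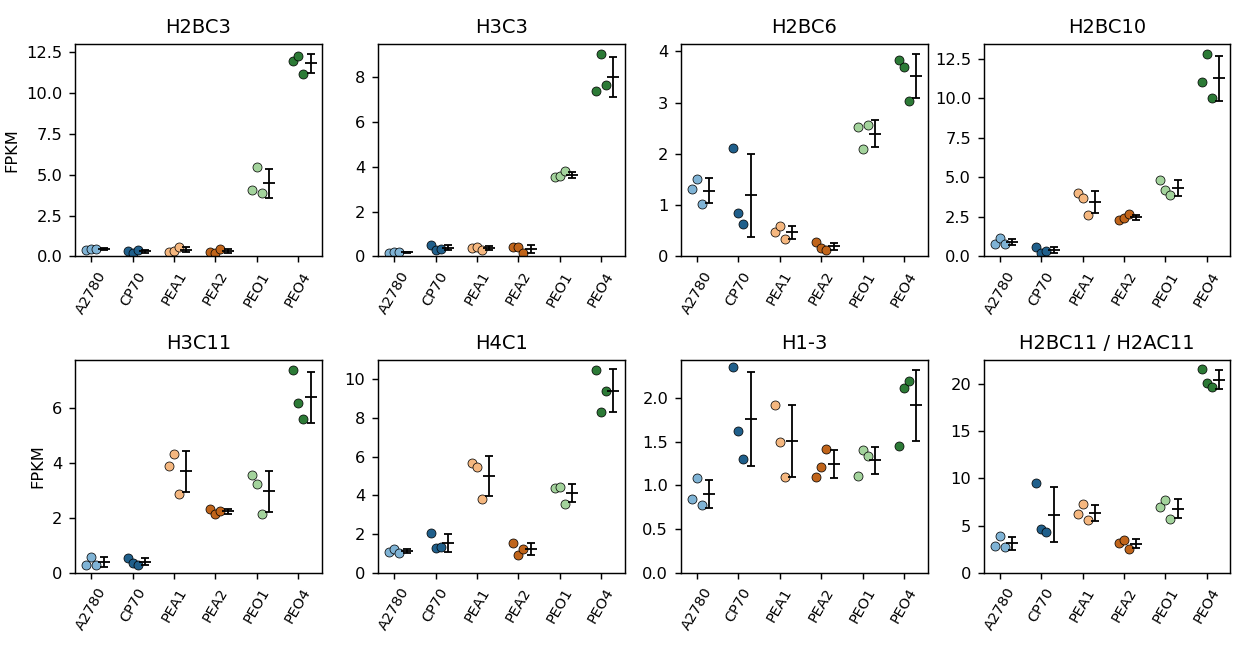
FPKM (vertical axis, separate scale in each panel, from 0) at 8 start windows in the 3 libraries of each line (points), with the mean and SD beside them. H2BC3 and H3C3 are at or below 0.575 FPKM outside the PEO pair, H3C11 is low in A2780 and CP70, H2BC10 is lowest in CP70, H2BC6 is low in PEA1 and PEA2, and H4C1 is lower in PEA2 than in PEA1.

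Across all members, the lines were also compared with the mean of the other 5 lines, a window being called at a log2 difference above 1 in size with an adjusted p below 0.05. Of the 83 member windows tested, 72 were higher in PEO4 (86.7%, against 45.8% of all 74141 windows) and 0 were lower (3.96% of all). The table holds windows over 2 FPKM in at least 2 libraries, and 13 members were in it only through PEO4 (15.5%, against 8.07% of all windows). At those the selection itself favours a higher value in PEO4, and no count without them is given for this comparison. In A2780, 54 were lower (65.1%, against 54.5% of all) and 0 higher (0.415% of all). In PEO1 only 9 were higher (10.8%, against 59.5% of all) and 1 lower (4.72% of all). CP70 had 18 lower (35.5% of all) and 1 higher (2.44% of all), PEA2 had 16 lower (14.4% of all) and 0 higher (20.2% of all), and PEA1 had 4 higher (5.55% of all) and 5 lower (18.5% of all). These counts depend on the scale, and for the settings that follow the shares of all windows are not given. After each library was centred on its median, 42 members were lower and 2 higher in PEO1, 2 were lower and 2 higher in A2780, 9 were lower and 8 higher in CP70, and 29 were higher in PEO4. With the local median of chromosome 6 subtracted 17 were higher in PEO4, with quantile normalization 16 and with the promoter median subtracted 11, and with a pseudocount of 1 FPKM 11 were lower in A2780. Among the start windows, the smallest differences of PEO4 were at the linker histone genes H1-3 (0.52 ± 0.194, adjusted p = 0.0132) and H1-5 (1.03 ± 0.204, adjusted p = 9.66e-06).

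The main question of the study was what differs between the sensitive and the resistant line of a pair. At the study's thresholds (a log2 fold change above 2 in size and an adjusted p below 0.001) 0 member windows were called in any pair, against 0.428% higher and 0.369% lower of all windows for CP70, 11.2% and 1.42% for PEA2, and 2.72% and 5.78% for PEO4. At an unadjusted p below 0.05, limma gave 48 of 57 members higher in CP70 and 56 of 76 lower in PEA2. In PEO4 it gave 83 of 84 higher, and the shares of all windows at this rule are not given. With edgeR the study's thresholds called 3 members lower in PEA2, and in PEO4 it called 3 members higher, with no share of all windows given. The changes below therefore lie under the fold that the study required, and are counted at an adjusted p below 0.05.

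The number of reads in a window depends on how many copies of that DNA a cell carries as well as on how open it is, and DNA copy number was not analysed here, so that in the changes below these cannot be told apart.

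The cluster had a higher signal in PEO4 than in PEO1. All 84 members had a higher mean in PEO4, with log2 fold changes from 0.41 to 1.81 and a median of 1.14, and 82 were called higher and 0 lower. Of all 77654 windows tested, 21.9% were higher and 45.8% lower, with a median of −0.30, and of the protein-coding start windows 26.4% were higher and 30.9% lower. Of the 38 histone start windows, 37 rose, with a median of 1.16, and the one that missed the threshold was H1-3 (0.53 ± 0.249, adjusted p = 0.0569). All 11 start windows of H2A, 12 of H2B, 9 of H3 and 7 of H4 rose, with medians of 1.39, 1.38, 1.11 and 1.09, and 3 of 4 of H1, with a median of 0.88. Since the table holds windows that reach 2 FPKM in at least 2 libraries, 13 members were in it only through PEO4. Of the 60 members that met this condition without the PEO pair, 60 rose, with a median of 1.17, against 21.1% of all such windows.

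The largest rise was at H2BC13, an H2B gene in the last of the 3 groups, which had 4.05, 4.19 and 3.34 FPKM in PEO1 and 14, 14.1 and 13.2 FPKM in PEO4 (log2 fold change 1.81 ± 0.131, SE, adjusted p = 1.26e-14). H2BC9, also an H2B gene, had 1.52, 1.48 and 1.34 FPKM in PEO1 and 4.77, 5.76 and 3.64 FPKM in PEO4 (1.62 ± 0.198, adjusted p = 5.18e-09). The shared start of H2BC11 and H2AC11 rose by 1.59 ± 0.117 (adjusted p = 2.36e-14). At all 3 starts every PEO4 library lay above every PEO1 library.

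The surroundings of the cluster moved in the same direction, with medians close to that of the members. Among the 514 non-member windows of chromosome 6 between 20 and 35 Mb, 85.2% were higher in PEO4, with a median of 1.11, and among 133 start windows of other protein-coding genes there, 130 were higher (97.7%), with a median of 1.18. Of the 11 start windows of other genes inside the cluster region, 10 rose and 0 fell, with a median of 1.06: ZNF184, a zinc finger gene, had 6.84 FPKM in PEO1 and 14.8 FPKM in PEO4 (1.12, adjusted p = 1.38e-09), ABT1 had 2.57 and 6.67 FPKM (1.37, adjusted p = 6.64e-09), and HMGN4 had 3.98 and 7.03 FPKM (0.81, adjusted p = 5.70e-06). After the local median was subtracted from each library, the median of the members was 0.15, with 25 higher and 5 lower. This takes away the median level of the local windows, a smaller shift than the median of their changes. Part of what remained therefore comes from the scaling. Before the subtraction the histone starts had a median of 1.16, against 1.18 at the other starts there. The local changes themselves ran from 0.03 to 1.93 (5th to 95th percentile), and the share called after the subtraction is not given.

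The starts that stayed higher on this scale were mostly those of H2A and H2B. After the local subtraction, 9 of 11 H2A and 8 of 12 H2B start windows were higher in PEO4 (medians 0.40 and 0.39), against 2 of 9 H3, 0 of 7 H4 and 0 of 4 H1 start windows (medians 0.12, 0.10 and −0.11). H2BC13 remained higher by 0.82 and the H2BC11 and H2AC11 start by 0.60. H2BC6, the one H2B start that was lower on this scale, was at −0.45. The families were not tested against each other, and the couples with a shared start count in both. H2A and H2B starts also had the highest levels in PEO4, and the part of level in these calls was not tested. The same families led among the falls in PEA2, given below. The share of all windows called on this scale is not given, so that these counts have no background.

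**Figure D5:**
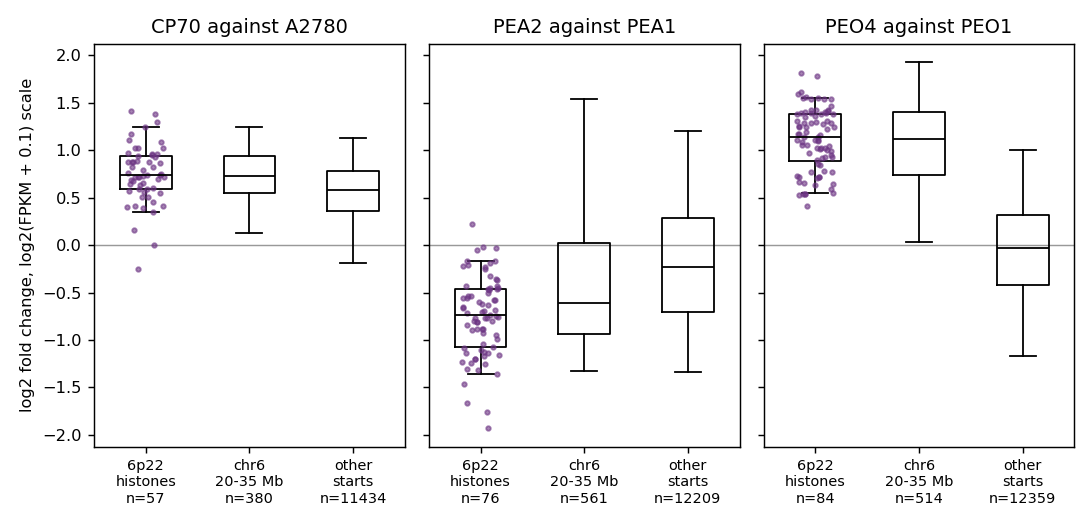
Log2 fold change of the resistant against the sensitive line on the log2(FPKM + 0.1) scale, for tested 6p22 member windows (points and box), non-member windows of chromosome 6 between 20 and 35 Mb, and start windows of other protein-coding genes; boxes span the quartiles, lines the median, whiskers the 5th to 95th percentiles. For PEO4 the median was 1.14 at the members and 1.11 around them, and for PEA2 −0.74 and −0.61.

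In the PEA pair the cluster moved the other way. PEA2 was lower than PEA1 at 53 of the 76 members tested and higher at 0, with a median log2 fold change of −0.74 and a range from −1.93 to 0.22. Of all 66103 windows, 21.4% were lower and 43% higher, and of the protein-coding start windows 35.8% were lower and 17.7% higher. Of the 33 histone start windows tested, 25 fell: 9 of 10 of H2A, 8 of 9 of H2B, 5 of 7 of H3, 5 of 7 of H4 and 2 of 4 of H1. The 8 members not tested had means of at most 1 FPKM in the pair and include H2BC3, H3C3, H3C12 and H2BC6.

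The largest fall was at H4C1, an H4 gene, with 5.67, 5.48 and 3.79 FPKM in PEA1 and 1.54, 0.925 and 1.24 FPKM in PEA2 (log2 fold change −1.93 ± 0.231, adjusted p = 7.15e-16). The shared start of H2AC17 and H2BC17 had 6.95, 6.23 and 4.36 FPKM in PEA1 and 2.2, 2.08 and 2.26 FPKM in PEA2 (−1.36 ± 0.227, adjusted p = 1.06e-08). H3C10, an H3 gene, had 4.42, 3.64 and 3.5 FPKM in PEA1 and 1.76, 1.45 and 1.64 FPKM in PEA2 (−1.20 ± 0.231, adjusted p = 6.84e-07). The libraries of the lines did not overlap at these starts, whereas at H4C13 and H4C4 the fold changes were −0.03 (adjusted p = 0.919) and −0.05 (adjusted p = 0.865).

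Here too the surroundings fell. Of the 561 non-member windows of chromosome 6 between 20 and 35 Mb, 55.3% were lower in PEA2, with a median of −0.61, and of 135 other start windows there 98 were lower (72.6%), with a median of −0.82. Of the 11 other genes inside the region, 5 fell and 0 rose, among them ABT1 (−1.43, adjusted p = 6.64e-09) and ZNF184 (−0.84, adjusted p = 4.90e-04). With the local median subtracted, 30 members were lower and 1 higher, with a median of −0.35, and the value of H4C1 was −1.54. Again the shift was smaller than the median of the local changes, which ran from −1.33 to 1.54 (5th to 95th percentile). Before the subtraction the histone starts had a median of −0.70, against −0.82 at the other starts there. After it, 7 of 10 H2A and 5 of 9 H2B start windows were lower in PEA2. So were 3 of 7 H3, 2 of 7 H4 and 0 of 4 H1 start windows. The share of local windows called after the subtraction is not given.

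In the A2780 pair the change rested on the scale. CP70 was higher than A2780 at 41 of 57 members tested and lower at 0, with a median of 0.74, where 47.5% of all 37128 windows were higher and 2.29% lower, with a median of 0.59. Of the start windows of protein-coding genes 43.9% were higher and 1.48% lower, and of the 26 histone start windows tested 19 were higher. With CP70 replicate 1 left out 22 members were higher and 1 lower, and with A2780 replicate 3 left out 17 were higher. Median centring left 5 higher and 1 lower, and the local subtraction 4 higher and 2 lower, with a member median of −0.00. The shares of all windows under these settings are not given. Around the cluster, 67.1% of 380 non-member windows were higher, with a median of 0.73, and 80 of 119 other start windows (67.2%).

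The largest rise was at the linker histone gene H1-2, with 1.81, 2.14 and 1.12 FPKM in A2780 and 6.52, 4.07 and 3.52 FPKM in CP70 (1.42 ± 0.274, adjusted p = 6.64e-06, and 0.67 after the local subtraction). H2BC5, an H2B gene, rose by 1.24 ± 0.29 (adjusted p = 2.57e-04, and 0.49 after the local subtraction). H4C2 (HIST1H4B in the annotation used) rose by 1.17 ± 0.259 (adjusted p = 1.07e-04), and after the local subtraction it was at 0.42 and no longer called (adjusted p = 0.114). The libraries of CP70 lay above those of A2780 at all 3 starts. The starts that were low in both lines were not tested: without the filter on low windows, H3C8 (−1.21 ± 0.298, adjusted p = 0.00246), H4C4 (−1.16 ± 0.289, adjusted p = 0.00277) and H2BC10 (−1.09 ± 0.291, adjusted p = 0.00549) were lower in CP70, together with a window beside H4C4. These were named after their values were seen.

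Over the 3 pairs together, resistant against sensitive lines, 0 of 83 members were called in either direction (0% of all 74141 windows), and 0 had an unadjusted p below 0.05 with limma on the line means. The median over members was 0.36.

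The changes themselves were compared between pairs. The change of the PEO pair exceeded that of the PEA pair at 79 of 83 members and fell below it at 0, where 21.5% of all 81671 windows differed upwards and 46.6% downwards. The change of the PEA pair lay below that of the A2780 pair at 61 of 74 members and above it at 2 (32.9% and 22.7% of all windows), and the change of the PEO pair lay above that of the A2780 pair at 28 of 82 members and below it at 0 (8.28% and 39.8% of all windows). Each line pair is used in more than 1 of these comparisons. Within the A2780 pair only 57 members had a mean above 1 FPKM, and within the PEA pair 76. Some members here thus passed that filter only through the other pair, where they are high. Their change in the low pair was not tested in the main fit of that pair.

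Related genes elsewhere did not all move with the cluster. For these lists the background is the protein-coding start windows, of which 26.4% were higher and 30.9% lower in PEO4. In PEA2 17.7% of them were higher and 35.8% lower, and in CP70 43.9% and 1.48%. No list was tested against these shares. Of 15 other replication-dependent histone genes listed, 7 had a start window in the table, in 6 windows. In PEO4, 2 of these rose and 0 fell, with a median of 0.26, and H2BC21 with H2AC20, a divergent couple on chromosome 1, had 11.8 FPKM in PEO1 and 15.3 FPKM in PEO4 (0.37, adjusted p = 0.00341). In PEA2, 5 fell and 1 rose, with a median of −0.88, and the H2BC21 and H2AC20 start fell by 1.22 on the log2 scale (adjusted p = 2.88e-07). In CP70, 4 rose and 0 fell, with a median of 0.72.

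Of 11 replacement histone genes, which are expressed outside replication, 5 rose and 1 fell in PEO4 (median 0.28), 2 rose and 5 fell in PEA2 (median −0.47), and 1 rose and 0 fell in CP70 (median 0.49). H3-3B, which encodes H3.3, had 22.1 FPKM in PEO1 and 40.8 FPKM in PEO4 (0.88, adjusted p = 2.08e-10) and fell in PEA2 (−1.24, adjusted p = 3.10e-07). H2AJ rose in PEA2 (0.84, adjusted p = 0.00145) and fell in PEO4 (−1.26, adjusted p = 4.38e-09).

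Of 16 genes for factors of the histone locus body and of histone transcripts, 5 rose and 4 fell in PEO4 (median 0.03), 2 rose and 8 fell in PEA2 (median −0.49), and 5 rose and 0 fell in CP70 (median 0.60). The start of SLBP had 29.8 FPKM in PEO1 and 46.8 FPKM in PEO4 (0.65, adjusted p = 4.33e-07) and fell in PEA2 (−0.93, adjusted p = 1.13e-04). The start of NPAT had 28.1 and 24.6 FPKM in PEO1 and PEO4 (−0.19, adjusted p = 0.0622) and fell in PEA2 (−0.60, adjusted p = 0.0147). In PEO4 the counts of this list lay near the 26.4% higher and 30.9% lower of all protein-coding start windows.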

How the data were processed

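ATAC-seq was measured in 18 libraries of 6 cell lines, grouped by the line and replicate number in the sample labels. The submitters' processing notes name Bowtie2, Picard and hg19 without versions. Per the study's methods, the authors counted uniquely aligned reads in 1 kb windows with featureCounts and made the deposited FPKM with the rpkm function of edgeR. As all windows have the same length, the deposited values are also RPM (reads per 1000000), and dividing them by the value of a single read gave whole numbers in 100% of cases (within 0.001), so that reads and library totals were recovered. The sources do not mention a Tn5 offset of read ends. The table holds 89428 windows, 2.6% of a grid with steps of 900 bases, and each exceeded 2 FPKM in at least 2 libraries.

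Window numbers matched GRCh37 at 23 of 23 chromosome steps, and genes were taken from GENCODE release 44 mapped to GRCh37. Pairs were compared with limma 3.58.1 in R 4.3.3 (lmFit and eBayes with a trend) on log2(FPKM + 0.1), over windows with a mean above 1 FPKM in the 6 libraries, with Benjamini-Hochberg adjusted p over all windows tested. The study used voom weights, which were an alternative, as were edgeR 4.0.16, other pseudocounts, filters and scalings, spans with no extension or 2 kb, and each library left out. Fold changes on this scale understate the change of low windows. Each line against the other 5 and the difference between pairs were fitted in the same way, and resistant against sensitive lines on the means of the 6 lines, blocked by pair. Neighbouring windows share 100 bases, so that adjacent calls are not independent. Limits from read numbers cover counting error only. The chi-square per window between replicates was 1.07 to 2.1, and no libraries were merged. The limma test was checked on simulated data for the PEO pair only, at the main setting, and the other fits were not.

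The members and gene lists were chosen with earlier results of these data known. Genes named are, in each pair, the 3 start windows with the largest rise and the 3 with the largest fall among those called, the highest and lowest start of each family, and in each line the 2 starts farthest above and the 2 farthest below the other lines, with examples from the lists. Of the windows named by this rule a few are given in counts or in the plots only.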

Additional observations from a re-analysis of the deposited data

Results flagged for a closer look

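The change from the sensitive to the resistant line differed between pairs at many member windows, by a limma test of the difference itself. For the PEO pair against the PEA pair, 79 of 83 members differed upwards and 0 downwards (21.5% and 46.6% of all 81671 windows), and the largest difference at a start window was 3.10 at H4C1. For the PEA pair against the A2780 pair, 61 of 74 members differed downwards and 2 upwards (32.9% and 22.7% of all 57320 windows), and the largest was −2.34, again at H4C1. For the PEO pair against the A2780 pair, 28 of 82 members differed upwards and 0 downwards (8.28% and 39.8% of all 72415 windows). The largest was 2.46 at H2BC10. This window was too low for the main fit of the A2780 pair, with 4 to 8 reads in the CP70 libraries. It is in the table only through lines outside that pair. After the local median of chromosome 6 was subtracted, the PEO and PEA pairs differed at 35 members upwards and 4 downwards, the PEA and A2780 pairs at 7 upwards and 21 downwards, and the PEO and A2780 pairs at 15 upwards and 5 downwards. With median centring the last comparison gave 62 upwards, and with 1 library left out 16 to 40. For these settings the shares of all windows are not given. Groups of 3 libraries are too small for a test of single libraries.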

How the results depend on the processing

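Counts are of member windows, and the shares of all windows under these settings are not given. For CP70 against A2780, with median centring 5 were higher and 1 lower (median 0.16), with quantile normalization 6 and 1 (0.20), with the local median of chromosome 6 subtracted 4 and 2 (−0.00, the one median that changed sign), with the promoter median subtracted 6 higher (0.15), and with edgeR 6 and 1 (0.15); without a filter on low windows 4 were lower. For PEA2 against PEA1, the local subtraction gave 1 higher and 30 lower (median −0.35), the promoter median 1 higher (−0.49), and the medians were −1.11 with median centring, −1.12 with quantile normalization and −1.12 with edgeR. For PEO4 against PEO1, the local subtraction gave 25 higher and 5 lower (0.15), and the medians were 1.48 with median centring, 1.40 with quantile normalization, 1.45 with edgeR and 0.90 with a pseudocount of 1 FPKM. A minimum mean of 5 FPKM left 1 window lower in PEA2, 25 higher in PEO4 (median 1.38) and none to test in CP70, because fewer windows were tested. At the study's thresholds, median centring, quantile normalization and edgeR called 3, 4 and 3 windows lower in PEA2 and 2, 2 and 3 higher in PEO4.

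For each line against the other 5, pseudocounts of 1 and 0.5 FPKM left 11 and 34 lower in A2780, 0 and 0 higher in CP70, 0 and 0 higher and 1 and 3 lower in PEA1, and 3 and 5 higher and 0 and 0 lower in PEO1; the pseudocount of 1 FPKM left 8 lower in CP70 and 4 lower in PEA2. With median centring there were 2 higher and 2 lower in A2780, 8 and 9 in CP70, 9 and 2 in PEA1, 2 and 42 in PEO1, 25 lower in PEA2 and 29 higher in PEO4. With quantile normalization there were 2 and 4 in A2780, 5 lower in CP70, 16 and 2 in PEA1, 2 and 40 in PEO1 and 16 higher in PEO4. With the local subtraction there were 2 and 3 in A2780, 0 higher in PEA1, 0 lower in PEO1 and 17 higher in PEO4. With the promoter median there were 2 and 3 in A2780, 11 and 2 in PEA1, 3 and 3 in PEA2, 2 and 39 in PEO1 and 11 higher in PEO4. With edgeR there were 2 and 3 in A2780, 3 and 11 in CP70, 16 and 2 in PEA1, 3 and 46 in PEO1 and 28 higher in PEO4.

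For the difference between pairs, the local subtraction gave 7 higher and 21 lower for PEA minus A2780, 15 and 5 for PEO minus A2780, and 35 and 4 for PEO minus PEA; median centring gave 62 higher for PEO minus A2780, and a pseudocount of 1 FPKM 1 higher for PEA minus A2780. Leaving out each library gave 17 to 45 higher and 0 to 1 lower in CP70 (17 without A2780 replicate 3, 22 higher and 1 lower without CP70 replicate 1), and 0 to 2 lower in PEA2 at the study's thresholds (2 without PEA1 replicate 3, 1 without PEA2 replicate 1 or 3). Against the other lines it gave 0 to 1 higher in CP70 (0 without CP70 replicate 1, PEA1 replicate 3 or PEA2 replicate 2) and 3 to 8 in PEA1 (8 without PEA1 replicate 3, 7 without CP70 replicate 1). For the difference between pairs it gave 1 to 3 higher for PEA minus A2780 (1 without A2780 replicate 2 or PEA1 replicate 2 or 3) and 16 to 40 for PEO minus A2780 (16 without A2780 replicate 2). With 1 library left out, a line of 2 was assumed to vary as the rest of the fit. The causes of these changes were not tested.

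The replicate numbers did not pair the libraries, as the correlations of their deviations ran from −0.41 to 0.04. With the replicate number as a block, 38 were higher in CP70, 51 lower in PEA2 and 82 higher in PEO4, and it moved no count by over 1.5 times and changed no call of the 9 named start windows. Narrower sets of windows were chosen after seeing the data. Windows within 1 kb of a canonical transcript, and windows that reach 2 FPKM outside the pair, moved no count by over 1.5 times. Of the 9 named start windows, all kept their direction, and H4C2 (HIST1H4B) was no longer called after the local subtraction (0.42). With the highest window of a gene in place of its start window, the median of the histone genes was 10.1 FPKM in PEO4 and 1.8 FPKM in A2780, and with the mean over its windows 6.2 and 1.24 FPKM. Depth limits the low windows: 3 reads were worth from 0.0496 FPKM (A2780 replicate 3) to 0.334 FPKM (PEO1 replicate 3).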
